A study of Mus musculus with 3 samples.

Results

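Complement is a cascade of plasma and tissue proteins, and 9 of its genes are described here in cultured cortical astrocytes of the mouse. They are the 3 chains of C1q (C1qa, C1qb, C1qc), the protease C1ra, the thioester proteins C4b and C3, the receptors C3ar1 and C5ar1, and the membrane regulator Cd55. The genes were chosen by symbol, and each of the 9 was found among the 19471 genes of the deposited table. RNA was measured by poly(A) sequencing in 1 group of 3 libraries, numbered as replicates 1, 2 and 3, from wild-type pups 5, 6 and 8 at postnatal day 1, after 7 days of culture. Day 1 is the age in the titles and design, while the descriptions and column names carry day 0. The series concerns the histone variant H2BE, but only wild-type, untreated libraries were analysed here, so no contrast between genotypes, ages or treatments was possible. Their depth was 14380993, 25128038 and 9858626 reads, and the 3 libraries are called biological replicates in the design text. Since every pup gave 1 culture and 1 library, differences between animals, dishes and preparations cannot be told apart.

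The classical pathway starts when C1q, a bundle of collagen-tailed A, B and C chains, binds a surface and activates the proteases C1r and C1s. These cleave C4 and C2, and the resulting convertase cleaves C3, the protein on which the classical, lectin and alternative pathways converge. Fragments of C3 and C5 signal through C3ar1 and C5ar1, while CD55 speeds the decay of convertases on the cell's own membrane. In brain, C1q is known chiefly as a product of microglia, C3 and C4 can be made by reactive astrocytes, and C1q and C3 tag synapses that microglia remove through complement receptor 3, the pair encoded by Itgam and Itgb2.

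The members ranged from very abundant to low. Values are the deposited normalized read counts, in which the reads of each library are divided by its size factor. Because longer transcripts give more reads, levels of different genes were compared after division by exon length, as normalized counts per kilobase of exon. Alternatives without that division are named as such, and summed counts of gene lists were not divided by length. The SD is over the 3 libraries throughout.

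The chains of C1q were the highest members in every library. Replicates 1, 2 and 3 gave normalized counts of 4834, 3728 and 2973 for C1qa. C1qb stood at 4511, 3405 and 3088 in the same order, and C1qc at 4674, 3423 and 3062. All 3 chains were highest in replicate 1 and lowest in replicate 3. Per kilobase, C1qa had 3697 ± 900 (SD, n = 3), C1qb 3371 ± 687 and C1qc 1926 ± 438, levels at the 99.4, 99.3 and 98.6 percentiles of all detected genes, meaning those whose mean normalized count reached 10.

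The promoters of C1qb and C3 are shown as examples. Both genes were highest in replicate 1, and each held 1 match among the motifs searched. The same was true of C1qc, whose promoter is not printed. C3ar1 was also highest in replicate 1, but its promoter held no match to any motif searched. Those of C1ra, C5ar1 and Cd55 held none either. The 250 bases before the RefSeq start site are given 5′ to 3′ on the gene's strand, which is the minus strand for both (GRCm38.p6, the mm10 assembly). Capitals mark the letters that matched, GAGGAA of ETS factors such as PU.1 in C1qb and TTGCNNAA of C/EBP factors in C3.
C1qb, chr4:136886201-136886450: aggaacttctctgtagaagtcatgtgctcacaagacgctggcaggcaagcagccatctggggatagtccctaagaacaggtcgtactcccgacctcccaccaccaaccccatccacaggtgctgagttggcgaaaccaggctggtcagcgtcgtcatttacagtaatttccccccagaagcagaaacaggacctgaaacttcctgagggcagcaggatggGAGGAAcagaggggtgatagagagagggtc
C3, chr17:57228137-57228386: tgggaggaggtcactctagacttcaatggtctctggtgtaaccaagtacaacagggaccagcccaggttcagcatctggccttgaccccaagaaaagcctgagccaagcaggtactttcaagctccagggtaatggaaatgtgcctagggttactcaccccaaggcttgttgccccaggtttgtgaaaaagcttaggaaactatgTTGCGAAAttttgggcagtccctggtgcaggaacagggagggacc
The match in C1qb lay 30 to 25 bases before the start, and that in C3 45 to 38 bases before it. The promoter of C1qc held GAGGAA on the opposite strand, 193 to 188 bases before its RefSeq start. GENCODE places the start of C1qc 151 bases further upstream than RefSeq does. Among all 32851 promoter windows of this length, 23.3% held GAGGAA and 9.56% held TTGCNNAA on either strand, so such matches are common. TTCNNNGAA of STAT factors, which 7.02% of all windows held, an IRF motif (2.98%) and an NF-kB motif (0.356%) had no match in the windows of C1qb, C1qc, C3, C1ra, C3ar1, C5ar1 and Cd55, the 7 members with a promoter sequence in hand. Both strands were searched, no 2 matches overlapped, and these windows say nothing of letters outside them.

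The 3 chains are encoded side by side on chromosome 4 of mm10, on the minus strand. C1qb (ENSMUSG00000036905) spans 136880129 to 136886187, C1qc (ENSMUSG00000036896) 136889804 to 136893065 and C1qa (ENSMUSG00000036887) 136895917 to 136898803, together 18.7 kb, and each gene has 3 exons. Within a library the chains kept close to one ratio. On the log2 scale per kilobase (pseudocount of 1), C1qb differed from C1qa by -0.16 in replicate 1, -0.20 in replicate 2 and -0.01 in replicate 3, and the ranges of the 2 genes overlapped. C1qc lay below C1qa by -0.94, -1.02 and -0.85, and below C1qb in 3 of 3 libraries. That distance depends on the gene model: the exons of C1qc sum to 1931 bases, of which the longest transcript holds 1203. With the longest transcript as the length, the differences of C1qc from C1qa were -0.26, -0.33 and -0.17. Without division by length, the mean difference was -0.04.

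C1ra, the protease that C1q switches on, was far lower than C1q. Replicates 1, 2 and 3 held 101, 113 and 88.5 normalized counts of it, a level per kilobase of 33.8 ± 4.07 at the 30.4 percentile of detected genes. The gene (ENSMUSG00000055172) is on the plus strand of chromosome 6, at 124512405 to 124523443, and 50.8% of the 50-base stretches of its transcripts also occur in another gene, chiefly its near copy C1rb. C1rb was sought by symbol but was not in the deposited table, so how reads were split between the copies is uncertain. C1s1, the partner protease, stood at a similar 37.9 ± 6.94 per kilobase, with 21.8% of its stretches shared, chiefly with C1s2, and with 576 exonic bases on the strand opposite to a second gene.

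C4b and C3, which carry the thioester that binds complement to surfaces, were intermediate. C4b had normalized counts of 2342, 2036 and 1914 in replicates 1, 2 and 3, or 368 ± 38.6 per kilobase. The gene (ENSMUSG00000073418) lies on chromosome 17 from 34728380 to 34743882 on the minus strand and shares 34.6% of its 50-base stretches with other genes, chiefly C4a. C4a stood at 14.1 ± 2.24 normalized counts, and its reads were 0.644% of the reads of the pair. C3 had normalized counts of 1639, 1135 and 1149, or 254 ± 55.8 per kilobase, and its gene (ENSMUSG00000024164) lies on chromosome 17 from 57203970 to 57228136 on the minus strand. Both genes were highest in replicate 1, C3 alone among the C1q, C4b and C3 genes was lowest in replicate 2, and none of its 50-base stretches occurs in another gene.

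The receptors C3ar1 and C5ar1 varied less between cultures than C3 did. C3ar1, the receptor of the anaphylatoxin C3a, had normalized counts of 747, 728 and 655, or 165 ± 11.3 per kilobase. Its gene (ENSMUSG00000040552) lies on chromosome 6 from 122847138 to 122856161. C5ar1, the receptor of C5a, had 354, 360 and 299, or 131 ± 13.1 per kilobase, and its gene (ENSMUSG00000049130) lies on chromosome 7 from 16246743 to 16259540. Both are on the minus strand, and both were lowest in replicate 3. C3ar1 lay above C5ar1 per kilobase in 3 of 3 libraries, by 0.33, 0.27 and 0.39 on the log2 scale.

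Cd55 was the lowest member and nearly level across cultures. Its normalized counts were 25.2, 25.5 and 25.1, from 31, 54 and 21 reads, or 5.21 ± 0.0384 per kilobase, at the 5.50 percentile of detected genes. The gene (ENSMUSG00000026399) lies on chromosome 1 from 130439027 to 130462744 on the minus strand, with 102 exonic bases opposite to a second gene. Of its 50-base stretches 8.0% are shared, chiefly with its copy Cd55b, which was sought by symbol but was not in the deposited table. The spread between libraries was below that of read sampling (chi-square of 0.00185 with 3 libraries).

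**Figure D1:**
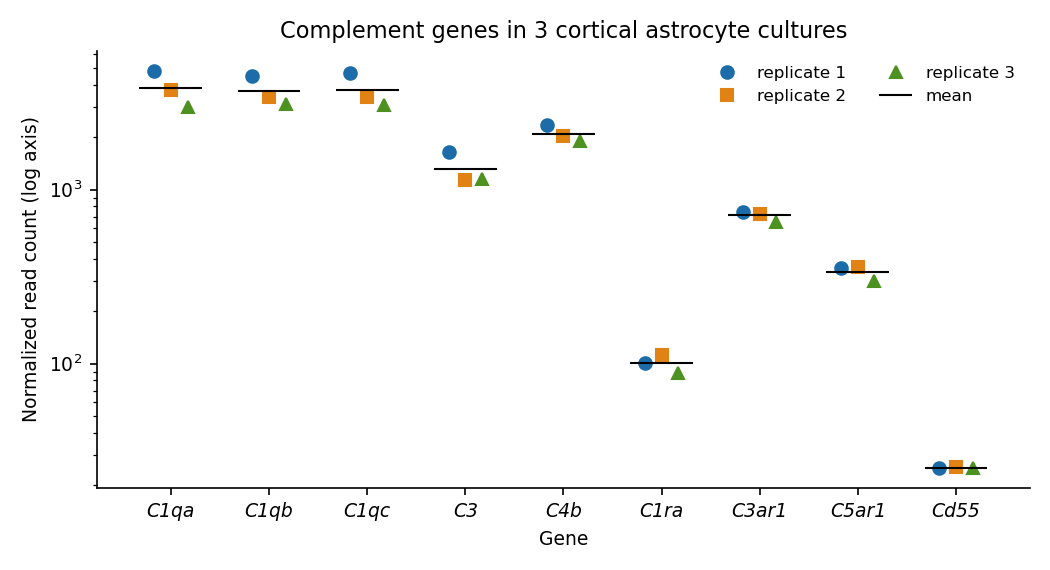
Normalized read count (log axis) of the 9 complement genes in each of the 3 libraries, with the mean as a line. The C1q chains lie between 2973 and 4834, C1ra between 88.5 and 113 and Cd55 near 25.3, and replicate 1 is the highest library for the C1q chains, C3 and C4b.

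Of the 9 members, 6 were highest in replicate 1 (the C1q chains, C3, C4b and C3ar1) and 8 were lowest in replicate 3 (all but C3). Of all genes with a mean of at least 100, 35.02% were highest in replicate 1 and 37.8% lowest in replicate 3.

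Ordered per kilobase, the members ran C1qa, C1qb, C1qc, C4b, C3, C3ar1, C5ar1, C1ra and Cd55. Of the 8 pairs of neighbours, 7 had ranges that did not overlap, and the exception was C1qa and C1qb. The smallest of the other steps was that between C3ar1 and C5ar1, a mean of 0.33 ± 0.06 on the log2 scale. The gap between C1qb and C1qc depended on the length used. Without division by length their ranges overlapped, at 3088 to 4511 and 3062 to 4674 normalized counts. With the longest transcript as the length they had 3371 ± 687 and 3092 ± 703 per kilobase. C4b lay above C3 by 0.37, 0.69 and 0.59 in replicates 1, 2 and 3, and C3 lay above C3ar1 by 0.87, 0.38 and 0.55.

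Each gene was then compared with C3 per kilobase, to place the members and the rest of the pathway around the component that all routes share. Of 13901 genes tested in limma, 12.8% lay above C3 and 74.5% lay below, with an adjusted p under 0.05. Among the 8 other members, 4 lay above C3 and 4 below it. C1qa lay above by 3.85 ± 0.22 (SE) on the log2 scale, or 14.4-fold (adjusted p = 1.80e-67, limma). C1qb lay above by 3.73 and C1qc by 2.91. C4b was closest among those above, by 0.55 ± 0.23 (adjusted p = 0.0203, limma), and its call ended without replicate 2 (adjusted p = 0.263, limma) and without replicate 3 (adjusted p = 0.286, limma).

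Below C3 were both anaphylatoxin receptors, C1ra and Cd55. C3ar1 differed from C3 by -0.60 ± 0.24 (adjusted p = 0.0133, limma) and C5ar1 by -0.93 ± 0.24 (adjusted p = 1.36e-04, limma). The call of C3ar1 ended with replicate 2 left out (adjusted p = 0.0942, limma) or replicate 3 left out (adjusted p = 0.211, limma), and with separate variances (adjusted p = 0.067, limma). The call of C5ar1 ended without replicate 3 (adjusted p = 0.0595, limma). C1ra differed by -2.86 and Cd55 by -5.34, with the same sign in 3 of 3 libraries. Every difference shares the same 3 values of C3, and limma borrows the spread of other genes. Its SEs rest largely on those genes and ran only from 0.22 to 0.29 over the complement genes tested. The SEs and p-values of limma therefore do not measure the error of each gene alone, however small the p-values are.

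The other genes of the pathway were taken from 7 lists by role, which hold 59 genes with the members and of which 43 were in the table. Of these, 31 reached a mean of 10, and 22 of them reached 100. Over the 30 tested against C3, 5 lay above it, 21 below it and 4 on neither side. Of all genes tested, 12.8% lay above C3 and 74.5% below it. The median difference of the 30 was -1.69, against -1.80 for all genes tested. Clu was the 1 complement gene above C3 that is not a member.

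The recognition and alternative arms were unevenly represented. In the lectin pathway, 2 of 9 listed genes had a mean of 10 or more. They were Colec12, a scavenger receptor of the collectin family, at 998 ± 148 normalized counts, and the protease gene Masp1 at 79.9 ± 14.2, while Fcna, a ficolin, stood at 4.44 ± 1.46. Colec12 differed from C3 by -1.13 per kilobase (adjusted p = 3.55e-06, limma), and its call ended without division by length (-0.38, adjusted p = 0.138, limma). Cfp encodes properdin, which stabilizes the alternative convertase, and stood at 312 ± 47.5, -0.49 from C3 (adjusted p = 0.0448, limma). The call of Cfp ended without replicate 2 or replicate 3 and with the longest transcript as the length (adjusted p = 0.209, 0.331 and 0.104, limma).

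Hc, which encodes C5, the precursor of the ligand of C5ar1, was well detected. Its normalized counts were 598, 527 and 680 in replicates 1, 2 and 3, so that replicate 3 was the highest, unlike for C5ar1. Per kilobase it had 96.1 ± 12.2 and differed from C3 by -1.38 (adjusted p = 2.06e-08, limma). The model of Hc overlaps a gene on the opposite strand by 76 exonic bases. The other terminal gene in the table, C8g, stood at 29.1 ± 5.12 normalized counts.

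Regulators of the fluid phase lay on both sides of C3. Clu, a secreted chaperone that also blocks the terminal complex, lay 5.07 above C3 (adjusted p = 1.07e-116, limma). Serping1, the inhibitor of C1r and C1s, had 326 ± 29.5 normalized counts and differed from C3 by -0.84 (adjusted p = 6.07e-04, limma), and its call ended without replicate 3 and with the longest transcript as the length (adjusted p = 0.0886 and 0.0744, limma). Cpn1 and Vtn stood at 5.06 ± 2.83 and 2.00 ± 0.696 normalized counts.

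Among 7 membrane regulators tested, 6 lay below C3, as did 74.5% of all genes tested, and 1 lay on neither side. The latter was Cd59a, which blocks the terminal complex at the membrane, at 489 ± 65.4 normalized counts and a difference of 0.10 ± 0.23 from C3 (adjusted p = 0.686, limma). Its sign turned without replicate 3 (-0.07) and without division by length (-1.40). Cr1l, the rodent regulator also named Crry, had 396 ± 28.3, Csmd1 570 ± 25.1 and Csmd2 196 ± 69.0, with differences from C3 of -2.68, -3.02 and -4.38. Cd55 was the lowest of the 7 per kilobase. Susd4 and Cd59b had 51.2 ± 3.90 and 15.7 ± 4.51 normalized counts.

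Of 7 receptors tested, 4 lay below C3, against 74.5% of all genes tested, and 3 lay on neither side. Itgam and Itgb2, the chains of complement receptor 3, had 1484 ± 173 and 661 ± 106 normalized counts, with differences from C3 of 0.23 and -0.22 (adjusted p = 0.341 and 0.369, limma). Without division by length Itgb2 lay below C3 (-0.97, adjusted p = 9.00e-05, limma). Without replicate 1, Itgam lay above C3 by 0.31 (adjusted p = 0.0154, limma), and 66.3% of its 50-base stretches occur in an overlapping gene model, so its value is uncertain. C1qbp, a mostly mitochondrial protein first described as binding C1q, differed by 0.18 (adjusted p = 0.468, limma). It was called above C3 without replicate 1 and with the longest transcript as the length (adjusted p = 0.0102 and 0.00500, limma), and its sign turned without division by length (-0.69). C5ar2, the second receptor of C5a, had 41.3 ± 5.05 normalized counts, -4.33 from C3, and Cd93 had 19.1 ± 5.70, -6.05 from C3.

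**Figure D2:**
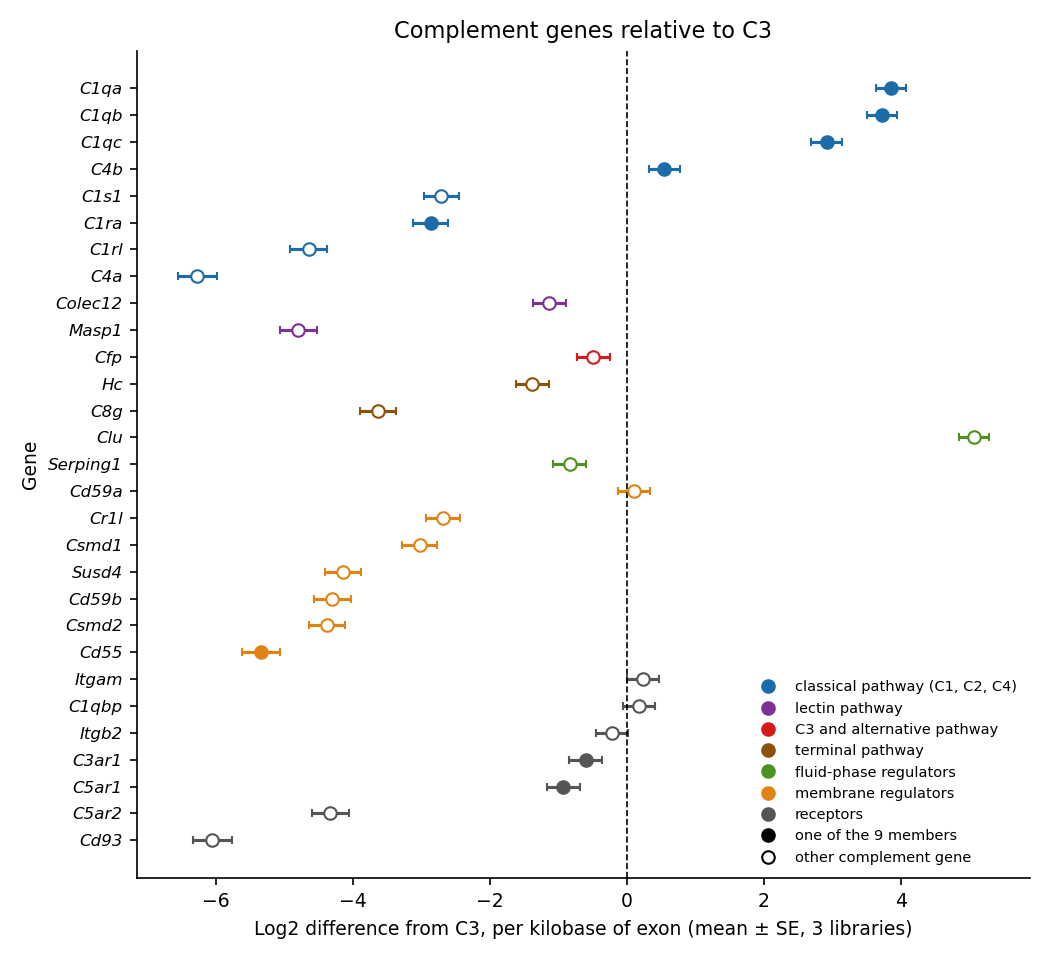
Log2 difference of complement genes from C3, per kilobase of exon (horizontal axis), grouped and coloured by role. Points are means over 3 libraries, and bars are the SE of limma, which borrows the spread of other genes. Filled points are members, and the dashed line is the level of C3. The C1q chains and Clu lie 2.91 to 5.07 above C3, and Cd55 lies 5.34 below it.

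The members differed in how much they varied between the 3 cultures. The SD of log2 normalized counts over libraries was 0.35 for C1qa, 0.32 for C1qc, 0.28 for C1qb and 0.30 for C3, against a median of 0.14 over genes with a mean of 100 or more. These values lay at the 98.3, 96.9, 95.4 and 95.7 percentiles of genes with 0.5 to 2 times the same mean. C4b at 0.15, C5ar1 at 0.15 and C3ar1 at 0.10 lay at the 64.9, 50.1 and 33.4 percentiles. C1ra was at 0.17 (percentile 41.7) and Cd55 at 0.01 (percentile 0.108). From the lowest to the highest library, C1qa changed 1.63-fold, C1qc 1.53-fold, C1qb 1.46-fold, C3 1.44-fold and C3ar1 1.14-fold. The SD rests on 3 values, and without replicate 1 it was 0.23 for C1qa, 0.11 for C1qc, 0.10 for C1qb and 0.01 for C3.

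**Figure D3:**
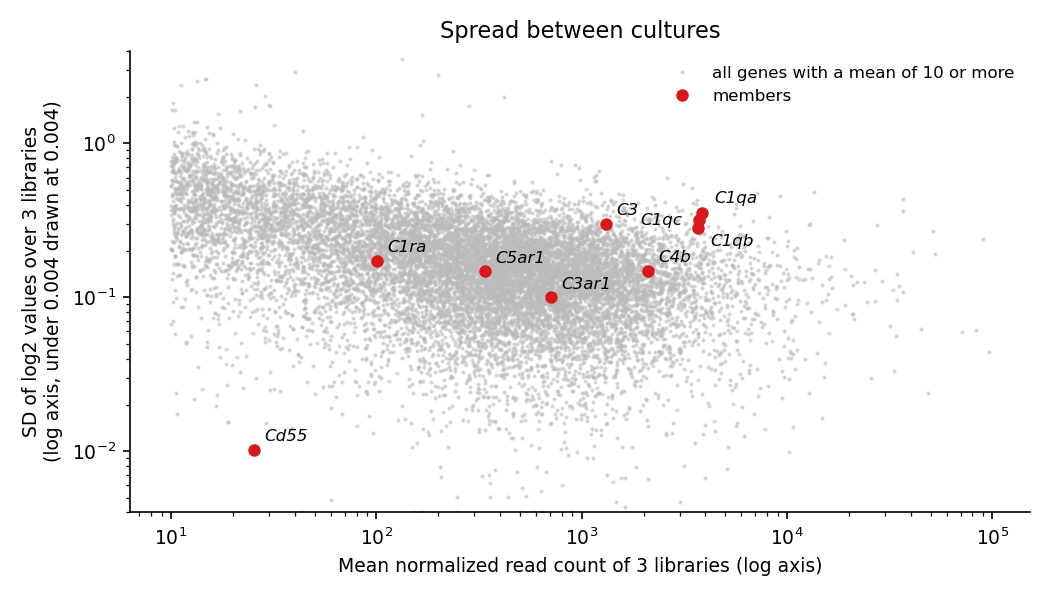
SD of log2 values over the 3 libraries against the mean normalized read count (both log axes) for all genes with a mean of 10 or more, with the 9 members in red. The C1q chains and C3 lie near the upper edge at their level, with SDs of 0.28 to 0.35, and Cd55 lies at 0.01.

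Reads were also compared between libraries with a chi-square test, which asks whether a gene varied by more than read sampling. Of all 13941 genes tested, 55.4% did at an adjusted p under 0.05, and of the 9 members 5 did, a share near that background. They were C1qa (adjusted p = 6.34e-107), C1qc (6.20e-102), C1qb (5.46e-81), C3 (4.16e-38) and C4b (2.10e-12, chi-square test). C1ra, C3ar1, C5ar1 and Cd55 were not called (adjusted p = 0.254, 0.0584, 0.0612 and 0.999, chi-square test), although C3ar1 and C5ar1 were called when TMM scaling set the expected reads (adjusted p = 0.0342 and 0.0309), and C3ar1 without replicate 2 (0.0273) and C5ar1 without replicate 1 (0.0374). Without replicate 1 the calls of C3 and C4b ended (adjusted p = 0.762 and 0.122), while those of the C1q chains held. Of the 31 complement genes tested, 16 were called.

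Most microglial markers were, like C1q, highest in replicate 1. The list of 16 microglial genes did not hold C1q, and 15 of them were in the table, each with a mean of 10 or more and none at 0 in any library. Summed over the list, replicates 1, 2 and 3 held 30642, 24538 and 22372 normalized counts, and 12 of the 15 were highest in replicate 1. The other 3, named after their values were seen, were highest in replicate 3: Sall1 (1196, 1218 and 1283), Ptprc (451, 443 and 484) and Siglech (36.6, 15.6 and 41.9). Lowest in replicate 3 were 9 of the 15, and also 9 of the 12 astrocyte markers. Csf1r, the receptor that microglia need to survive, had 7005, 5210 and 4335, Ctss 4658, 3740 and 3944, and Cx3cr1 4202, 3505 and 2882. The 12 astrocyte markers were all detected, and their summed count was 164637, 165226 and 144533, with 3 of the 12 highest in replicate 1. In bulk RNA more cells of a type and more RNA per cell cannot be told apart, and the part of the microglial genes in the spread of C1q was not tested.

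Set against the mean of the microglial list within each library, the C1q chains varied less than by themselves. To a smaller degree they also did so against the astrocyte mean. On the log2 scale per kilobase, C1qa lay above that mean by 3.39, 3.36 and 3.06 in replicates 1, 2 and 3, with an SD of 0.18. C1qb lay above it by 3.22, 3.17 and 3.05 (SD 0.09) and C1qc by 2.45, 2.35 and 2.21 (SD 0.12). C3 differed from the same mean by -0.48, -0.65 and -0.61 (SD 0.09), and C4b by -0.11, 0.04 and -0.03 (SD 0.08). Without division by length C3 lay above the list mean, by 0.37. For C3ar1, C5ar1 and C1ra the SD was 0.16, 0.19 and 0.26 against the microglial mean and 0.07, 0.03 and 0.04 against the astrocyte mean. Against the astrocyte mean C1qa, C1qb and C1qc had SDs of 0.28, 0.25 and 0.28, where their own SDs were 0.35, 0.28 and 0.32. For C3 the SD against the astrocyte mean was 0.31, where its own was 0.30, and for C4b it was 0.15. For Cd55 the SD was 0.21 against the microglial mean and 0.14 against the astrocyte mean. Of their own log2 normalized counts, C4b, C3ar1, C5ar1, C1ra and Cd55 had SDs of 0.15, 0.10, 0.15, 0.17 and 0.01. Whether these SDs differ was not tested, since each rests on 3 values and an exact sign-flip test over 3 libraries cannot give a p below 0.25.

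**Figure D4:**
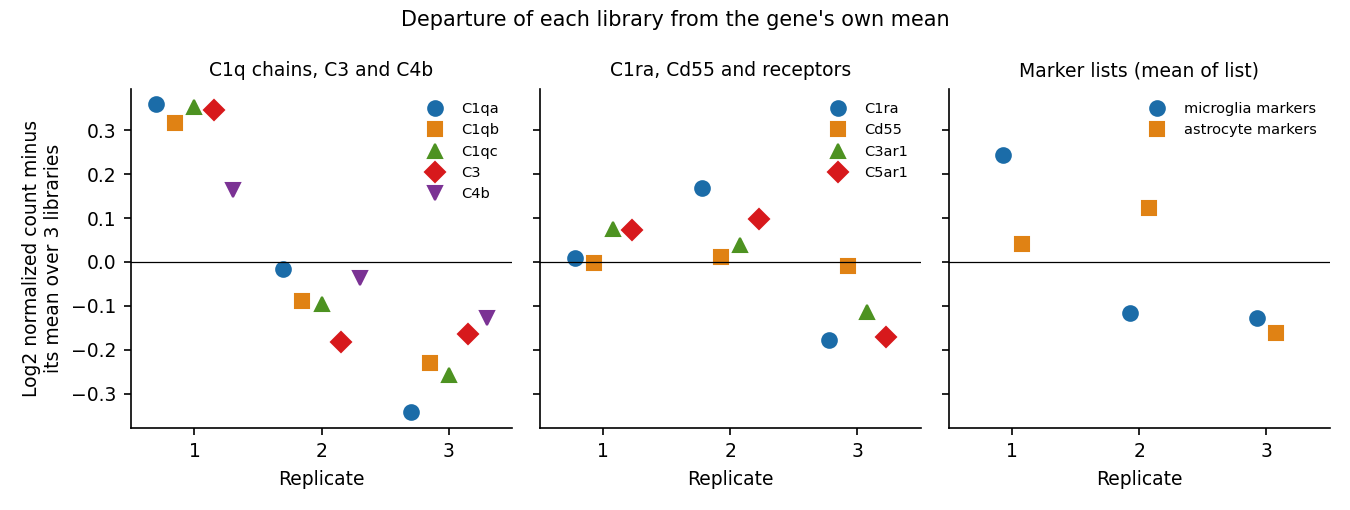
Log2 normalized count of each gene in each library minus its mean over the 3 libraries (vertical axis), by replicate. The left panel shows the C1q chains, C3 and C4b, the middle panel C1ra, Cd55 and the receptors, and the right panel the mean over 15 microglial and 12 astrocyte markers. C1qa stands 0.36 above its mean in replicate 1 and the microglial list 0.24 above its own, whereas the astrocyte list stands 0.04 above it.

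Markers of other cells were compared for the same reason. Of 10 fibroblast and meningeal genes 7 had a mean of 10 or more, with a summed count of 6301 to 6821, of 8 mural genes 6 (80729 to 82343), of 7 endothelial genes 5 (2367 to 2749) and of 8 neuronal genes 5 (3363 to 3767). These sums are carried by their most abundant genes, such as Acta2 and Tagln among the mural genes, and single members varied more. The median SD of log2 normalized counts over the detected genes of each list was 0.25 for the microglial list, 0.16 for astrocyte, 0.23 for fibroblast and meningeal, 0.14 for mural, 0.32 for endothelial and 0.29 for neuronal genes. Whether these medians differ, and the part of the other lists in the results, was not tested.

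The genes with the most similar pattern over the 3 libraries were found among 10570 others with a mean of 100 or more, by the root mean square difference of log2 values centred on each gene's mean. For C1qa the 5 nearest included Syngr1, Spi1, Nudt14 and Mvp, at differences of 0.0155 to 0.0219. Spi1, which encodes PU.1, had normalized counts of 518, 400.02 and 326. Csf1r ranked 9, Tmem119 39, C1qc 84 and C1qb 135 in likeness to C1qa. For C3 the nearest were Pamr1, Ppp1r13l, Rac2, Parp10 and Rasal3, with C1qb at rank 60 and C1qa at 724. For C4b they were Tubb4b, Whamm, Gm6548, Ube2s and Elobl. With 3 libraries a pattern holds 2 independent values, so many genes lie close by.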

How the data were processed

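RNA was measured by stranded poly(A) sequencing in 3 libraries of 1 group, per the labels' protocols. The deposited signal is a normalized read count per gene, which the authors made with DESeq2 on mm10, per the submitters' processing notes. What aligned and counted the reads, whether strand was used, and how genes were annotated and filtered is not given in the sources used here, so reads of genes that overlap on opposite strands may not be separable. Values were not divided by length, and the authors' mean was not used.

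All 58413 values (100%) were whole multiples of the worth of 1 read within 0.05 reads, and these recovered reads entered the chi-square test, which called 7726 of 13941 genes. One read was worth 0.813, 0.472 and 1.20 in replicates 1, 2 and 3, and 0 reads allows up to 3 reads, or 2.44, 1.42 and 3.59 normalized counts. Such limits cover counting error only. Of 19471 identifiers, 19372 (99.5%) matched GENCODE vM21, whose exons gave the lengths. RefSeq (GRCm38.p6) gave the promoters.

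Differences from C3 of log2(normalized count per kilobase + 1) were tested with limma (an intercept alone, trended prior) in genes whose mean reached 10. Reads were compared between libraries by chi-square, in genes whose mean reached 10 and that had at least 30 reads, with expected reads set by library totals. Both were adjusted by Benjamini-Hochberg over all genes tested, and both procedures were tested on simulated data, where the limma test called genes with no difference from C3 more often than its threshold allows, so its calls with an adjusted p near 0.05 (C4b, C3ar1 and Cfp) are weak. With 1 group, no count model with a contrast was possible. The alternatives were scaling, pseudocount, filter, length, prior and each replicate left out. Separate variances, a one-sample t-test of each gene without the limma prior, were added after the data were seen.

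The members and lists were chosen with earlier results of these data known. Named are the members, the other complement genes whose mean reached 100, the 2 highest of each role list under 100, the 3 highest of each marker list in the text, and the 5 nearest in pattern to C1qa, C3 and C4b. Tmem119 and the lower members of the list of factors and inducers were named after their values were seen. Some genes that the rule selects are left out of the text and the plots. Python 3.11.15, numpy 2.4.6, pandas 2.3.3, SciPy 1.17.1, matplotlib 3.10.9, R 4.3.3, limma 3.58.1 and edgeR 4.0.16 (for TMM factors) were used.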

Additional observations from a re-analysis of the deposited data

How the results depend on the processing

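The number of complement genes above C3 stayed within 1.5 times the 5 reported under all 12 alternatives. The number below C3, 21 as reported, was 12 with a filter at a mean of 100 or more and 33 with no filter, which change how many genes are tested. The number of genes whose reads differed between libraries, 7726 as reported, was 4958 to 5415 with 1 replicate left out, where fewer libraries are compared. Division by length decided several directions. Without it, Cd59a differed from C3 by -1.40, C1qbp by -0.69, C3 from the microglial mean by 0.37, and C1qa, C1qb and C1qc from the astrocyte mean by -0.40, -0.46 and -0.44, where the values per kilobase were 1.83, 1.70 and 0.89. With 1 replicate left out, Cd59a differed from C3 by -0.066 (without replicate 3) to 0.25 (without replicate 1). No paired analysis was possible because there is 1 group. The depth of the shallowest library, 9858626 reads, limits what can be said of Cd55, which had 21 reads in it.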

Other observations

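Transcription factors and cytokines known to act on complement genes were also measured, as a list of 14 genes, and 12 of them reached a mean of 10. Those with the most reads, not divided by length, were Stat3, a mediator of cytokine signals, at 4344 ± 295 normalized counts (SD, n = 3), the growth factor gene Tgfb3 at 1463 ± 81.9, and Nfkb1, a subunit of NF-kB, at 1273 ± 77.9. Of the myeloid factors, named after their values were seen, Irf8 stood at 499 ± 75.5 and Spi1 at 415 ± 96.7, and both were highest in replicate 1 and lowest in replicate 3, as the C1q chains were. The summed count of the list was 11511, 11183 and 10925 in replicates 1, 2 and 3.

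The inflammatory cytokine genes of the list had few reads. Tnf stood at 63.9 ± 3.97, Il1b at 9.65 ± 4.39 and Il1a at 5.98 ± 1.54, the last from 23 reads over the 3 libraries.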
